A study of Mus musculus with 10 samples.

Results

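The Timm and Tomm genes encode the subunits of the translocases that carry proteins into mitochondria. They were followed here in kidneys of C57BL/6 mice housed for 30 days at 4200 m (the hypoxia group) or at 400 m (the control group), with 5 libraries in each group and total RNA as the material. Members were all protein-coding genes of the deposited table whose name starts with Timm or Tomm, which gave 26 of 55952 genes. Of these, 23 had a mean of at least 0.5 FPKM (fragments per kilobase of gene, scaled to the size of the library) over the 10 libraries and entered the test with 15264 genes in all. Both groups were of the same strain, no other treatment is given in the labels, and altitude and housing site cannot be told apart. The study set the groups side by side to learn how the kidney's energy metabolism responds to the low oxygen of highland areas.

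Most mitochondrial proteins are made in the cytosol and must be brought into the organelle. The TOM complex of the outer membrane recognises them and lets them through its channel. The TIM23 complex then takes proteins with an amino-terminal targeting sequence (the presequence) across or into the inner membrane, whereas the TIM22 complex inserts metabolite carriers, which small TIM chaperones guide through the intermembrane space. The kidney's tubules, the proximal tubule above all, are rich in mitochondria and depend on their ATP to reabsorb solutes.

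Reads on genes, recovered from FPKM and gene length, came to 16561672 to 17845464 in the 10 libraries. The extraction protocol in the labels names the retina, whereas all samples are labelled kidney, and 5 retina markers summed to 0.122 to 0.428 FPKM in hypoxia libraries and 0.301 to 0.656 FPKM in control libraries. Proximal tubule markers summed to 2184 to 4240 FPKM in hypoxia libraries and 3747 to 4512 FPKM in control libraries, and 0 of the 8 passed the limma test. Their log2 fold changes ran from −0.89 (Slc5a2, adjusted p = 0.0575) to 0.28 (Aqp1, adjusted p = 0.277). Slc5a2 had 32.8 to 89.8 FPKM in hypoxia libraries and 92.4 to 156.5 FPKM in control libraries. Of 3 distal convoluted tubule markers 1 was lower, Pvalb, with 3.27 to 7.46 FPKM in hypoxia libraries and 14.0 to 16.8 FPKM in control libraries (log2 fold change −1.36, adjusted p = 0.00187), while Slc12a3 and Trpm6 did not pass. The part of either tubule segment in the results was not tested. By their markers, 2 hypoxia libraries held RNA of tissues other than kidney. In hypoxia replicate 4, adrenal cortex markers summed to 688.1 FPKM and fat markers to 655.3 FPKM. In hypoxia replicate 5, B cell markers summed to 360.0 FPKM, macrophage markers to 151.9 FPKM and pancreatic acinar markers to 32.8 FPKM. Results are therefore also given without these 2 libraries. Brown fat markers (Ucp1, Cidea and Cox8b) differed between the groups, with 3 of 3 lower in hypoxia. They summed to 0.291 to 6.06 FPKM in hypoxia libraries, against 43.9, 16.9, 1.03, 48.3 and 41.6 FPKM in control replicates 1 to 5, and Ucp1 was at 0 in hypoxia replicates 2 and 3 and in control replicate 3. Brown fat is itself rich in mitochondria.

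Transcripts of 10 of the 23 tested members (43.5%) were lower in hypoxia kidneys and 1 was higher. Over all tested genes, 7.79% passed as lower and 3.66% as higher (limma on log2(FPKM + 0.5), two-sided, Benjamini-Hochberg adjusted p under 0.05 over 15264 genes). The lower members were Tomm40, Tomm40l, Tomm5, Tomm7, Timm23, Timm17a, Timm50, Timm8b, Timm13 and Timmdc1, and the higher member was Tomm20. The median log2 fold change of the 23 members was −0.23, against 0.012 over all genes tested, with 18 members below 0 and 5 above. Together the 26 members summed to 421.4 ± 32.7 FPKM in hypoxia kidneys and 525.5 ± 37.8 FPKM in control kidneys (SD, n = 5 each). Every hypoxia library lay below every control library for 10 members, which holds for 8.54% of all genes, and above every control library for 1 member, which holds for 5.68%. In kidney tissue, fewer cells of a type rich in these transcripts and less of these transcripts per cell cannot be told apart.

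Without hypoxia replicates 4 and 5, 7 members were lower and 1 was higher, against 7.75% and 4.53% of 14724 genes tested, and all 7 were among the 10 of the full set of libraries. The members whose limma call was lost there were Tomm40 (log2 fold change −0.22 there, against −0.23 in all libraries, adjusted p = 0.0534), Tomm40l (−0.33 against −0.50, adjusted p = 0.116) and Timm8b (−0.29 against −0.40, adjusted p = 0.0674). Control replicate 3 had the lowest brown fat marker sum of the control libraries. In it, each of the 10 lower members was above its value in every hypoxia library. Apart from Tomm40l, the groups did not overlap for these members. For them the same therefore holds in every control library, whatever its brown fat marker sum, and it cannot tell what part brown fat had. The part of brown fat RNA in the values of the other control libraries was not tested. The count of lower members also moved when a single library was omitted. It was 5 when the omitted library was control replicate 1, 2, 3 or 5 or hypoxia replicate 4. It was 6 on omitting hypoxia replicate 3, 8 on omitting hypoxia replicate 1, 9 on omitting control replicate 4, 10 on omitting hypoxia replicate 5 and 11 on omitting hypoxia replicate 2. The calls of Tomm7, Timm23, Timm50, Timm13 and Timmdc1 held in all 10 of these fits. Those of Tomm40, Tomm40l, Tomm5, Timm17a and Timm8b were each lost on omitting any of control replicates 1, 2, 3 and 5 or hypoxia replicate 4. Omitting hypoxia replicate 3 also ended the calls of Tomm40l, Tomm5, Timm17a and Timm8b, omitting hypoxia replicate 1 those of Tomm40 and Tomm40l, and omitting control replicate 4 that of Tomm40l.

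**Figure D1:**
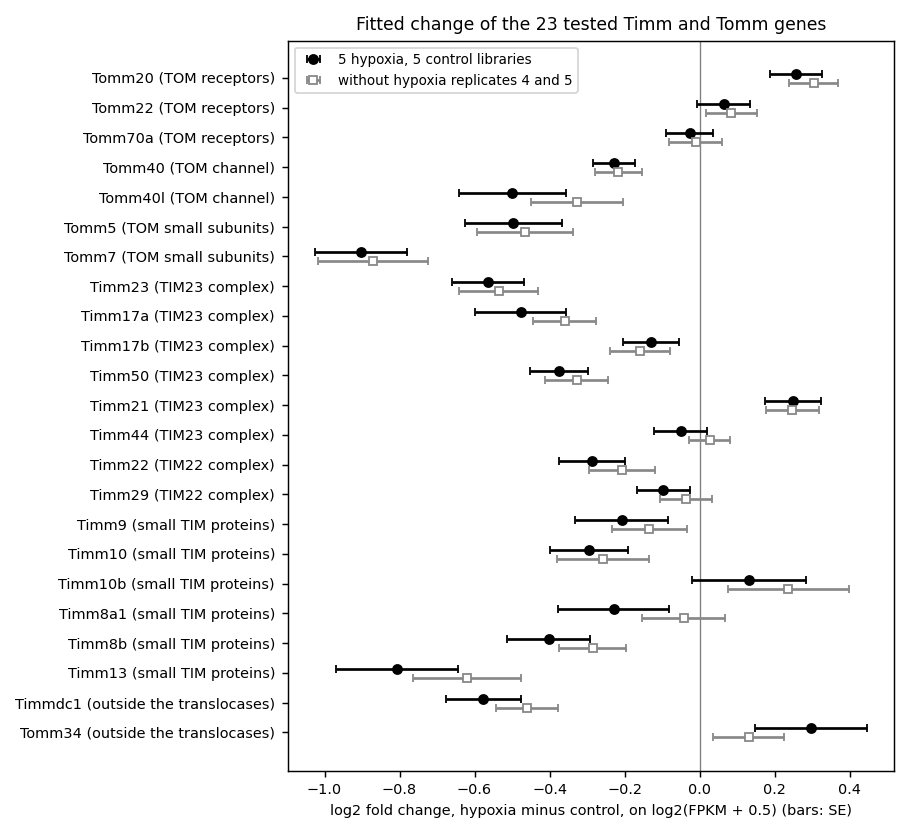
Log2 fold change (hypoxia minus control, on log2(FPKM + 0.5)) of the 23 tested Timm and Tomm genes, ordered by role, with bars for 1 standard error, from all libraries (filled circles) and without hypoxia replicates 4 and 5 (open squares). Tomm7 lies lowest at −0.90 and Timm13 next at −0.81 in all libraries, whereas the 3 receptors of the outer membrane lie between −0.03 and 0.26.

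The bases just before the start of several of these genes are shown because the lower Timm23, Timmdc1 and Timm8b share a binding motif of ETS factors there with Tomm22 and Tomm70a, which did not pass the test. Sequences are those of RefSeq on GRCm38.p6, matched by symbol for 23 of the 26 members. Each run holds the 50 bases before the annotated start, read 5′ to 3′ on the strand of the gene, and capitals mark the letters CCGGAAG or their reverse complement. The positions are chr14:32201892-32201941 (minus strand) for Timm23, chr16:38522664-38522713 (minus strand) for Timmdc1, chr9:50603851-50603900 (plus strand) for Timm8b, chr15:79670818-79670867 (plus strand) for Tomm22 and chr16:57121664-57121713 (plus strand) for Tomm70a.
Timm23: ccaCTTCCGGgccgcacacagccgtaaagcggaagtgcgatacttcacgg
Timmdc1: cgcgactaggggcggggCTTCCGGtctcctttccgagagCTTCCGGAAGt
Timm8b: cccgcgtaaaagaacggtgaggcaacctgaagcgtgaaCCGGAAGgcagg
Tomm22: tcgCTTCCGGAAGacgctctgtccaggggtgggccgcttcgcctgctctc
Tomm70a: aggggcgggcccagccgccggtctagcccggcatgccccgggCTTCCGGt

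The promoter of Tomm20, the member that was higher, holds a match to the motif of NRF1, a factor known for its target genes in mitochondrial biogenesis. Its 50 bases lie at chr8:126945922-126945971 on the minus strand, and capitals mark the match.
Tomm20: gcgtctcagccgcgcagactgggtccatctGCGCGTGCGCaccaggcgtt

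Over the full windows of 300 bases (250 before and 50 after the start), searched on both strands, the ETS letters CCGGAAG were in 10 of 23 member promoters (43.5%), against 12.9% of the promoters of 17491 protein-coding genes. They were in 3 of the 8 lower members with a promoter sequence, which the lower Tomm7 and Tomm40l lacked. The other tested members that held them were Tomm22, Tomm70a, Timm10, Timm10b, Timm29 and Tomm34, and none of these was lower in the limma test. Timm8a2 held them too but was below the filter and not tested. The NRF1 motif (GCGC, any base, then TGCGC) was in Timm8b and Tomm20, 2 of 23 members against 7.17% of all promoters. The letters ATGGCGG of YY1 were in Timm44, Timm50 and Timm8b, against 6.05% of all, and AAGGTCA, bound by estrogen-related receptors, was in Timm23, Timm44 and Timm8b, against 4.73%. The short core ACGTG of the HIF motif was in 7 members, against 23.2% of all promoters. The heat shock letters GAANNTTC were in Timm9, against 8.44% of all promoters. These matches describe the letters of the windows and say nothing of binding.

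Among the receptors of the TOM complex, Tomm20, which recognises presequences on the mitochondrial surface, was higher in hypoxia. It had 41.3, 39.3, 40.8, 39.2 and 35.5 FPKM in hypoxia replicates 1 to 5, against 34.5, 34.8, 30.2, 31.6 and 32.6 FPKM in control replicates 1 to 5. The groups did not overlap, although hypoxia replicate 5 lay within 1 FPKM of the highest control library. The log2 fold change was 0.26 (SE 0.0689, adjusted p = 0.0380). With hypoxia replicates 4 and 5 left out it was 0.30 (adjusted p = 0.0202). Among the 11 calls it was the one lost most often, since of the 10 fits with a library omitted it held in 1, that without hypoxia replicate 5. The largest adjusted p was 0.0966, on omitting control replicate 3.

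Tomm22, the central receptor that also organises the complex, had 38.4, 35.3, 33.1, 31.8 and 37.0 FPKM in hypoxia replicates and 35.2, 34.9, 32.7, 33.0 and 31.9 FPKM in control replicates, so that the groups overlapped (log2 fold change 0.06, adjusted p = 0.563). Tomm70a, the receptor for carrier precursors that arrive bound to cytosolic chaperones, averaged 13.2 ± 0.766 FPKM in hypoxia kidneys and 13.4 ± 0.719 FPKM in control kidneys (SD, n = 5 each; log2 fold change −0.03, adjusted p = 0.80). Neither receptor passed the test.

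Both channel genes were lower. Tomm40, which forms the pore of the outer membrane, had 7.67, 8.22, 8.39, 8.09 and 7.74 FPKM in hypoxia replicates 1 to 5, against 9.86, 9.76, 9.66, 8.77 and 9.40 FPKM in control replicates 1 to 5. The groups did not overlap, with control replicate 4 the nearest to the hypoxia libraries (log2 fold change −0.23, SE 0.0564, adjusted p = 0.0286). Tomm40l, a close relative of Tomm40 with low transcript levels here, had 1.80, 2.44, 1.81, 1.54 and 1.20 FPKM in hypoxia replicates and 2.64, 2.88, 2.59, 2.98 and 2.17 FPKM in control replicates. Hypoxia replicate 2 lay above control replicate 5 (log2 fold change −0.50, SE 0.143, adjusted p = 0.0481). The Tomm40 call held in 4 of the 10 fits that left out a library (adjusted p up to 0.0791, without control replicate 1) and the Tomm40l call in 2 (up to 0.111, without control replicate 2).

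The small TOM subunits, which settle next to the channel and affect how firmly the complex holds together, had the lowest median log2 fold change of the 7 role groups (−0.70 over the 2 tested). Tomm7, which in human cells also helps to keep the kinase PINK1 on damaged mitochondria, had 16.3, 21.3, 16.6, 17.6 and 16.3 FPKM in hypoxia replicates 1 to 5, against 37.1, 39.1, 33.9, 32.7 and 25.1 FPKM in control replicates 1 to 5. Hypoxia replicate 2 was the highest of its group and still below control replicate 5, the lowest control library. The mean was 17.6 ± 2.11 FPKM in hypoxia kidneys and 33.6 ± 5.39 FPKM in control kidneys, 47.5% lower (log2 fold change −0.90, SE 0.123, adjusted p = 0.00238). It was −0.87 with hypoxia replicates 4 and 5 left out (adjusted p = 0.00801), and the largest adjusted p when single libraries were left out was 0.0103.

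Tomm5 had 37.2, 40.2, 28.0, 27.6 and 39.2 FPKM in hypoxia replicates and 53.9, 53.5, 44.3, 42.3 and 48.0 FPKM in control replicates. The groups did not overlap, and hypoxia replicates 3 and 4 lay well under the other hypoxia libraries (log2 fold change −0.50, SE 0.130, adjusted p = 0.0347). On leaving out hypoxia replicates 4 and 5 the adjusted p was 0.0464, and the call held in 4 of the 10 fits that left out a library (up to 0.0902, without control replicate 1). Tomm6, the other small subunit, was listed at 0 in 8 libraries, at 0.0485 FPKM in hypoxia replicate 5 and at 0.0526 FPKM in control replicate 3. It shares 1648 bases on the same strand with Gm21981, and how reads of shared bases were counted is not given, so its level is uncertain.

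**Figure D2:**
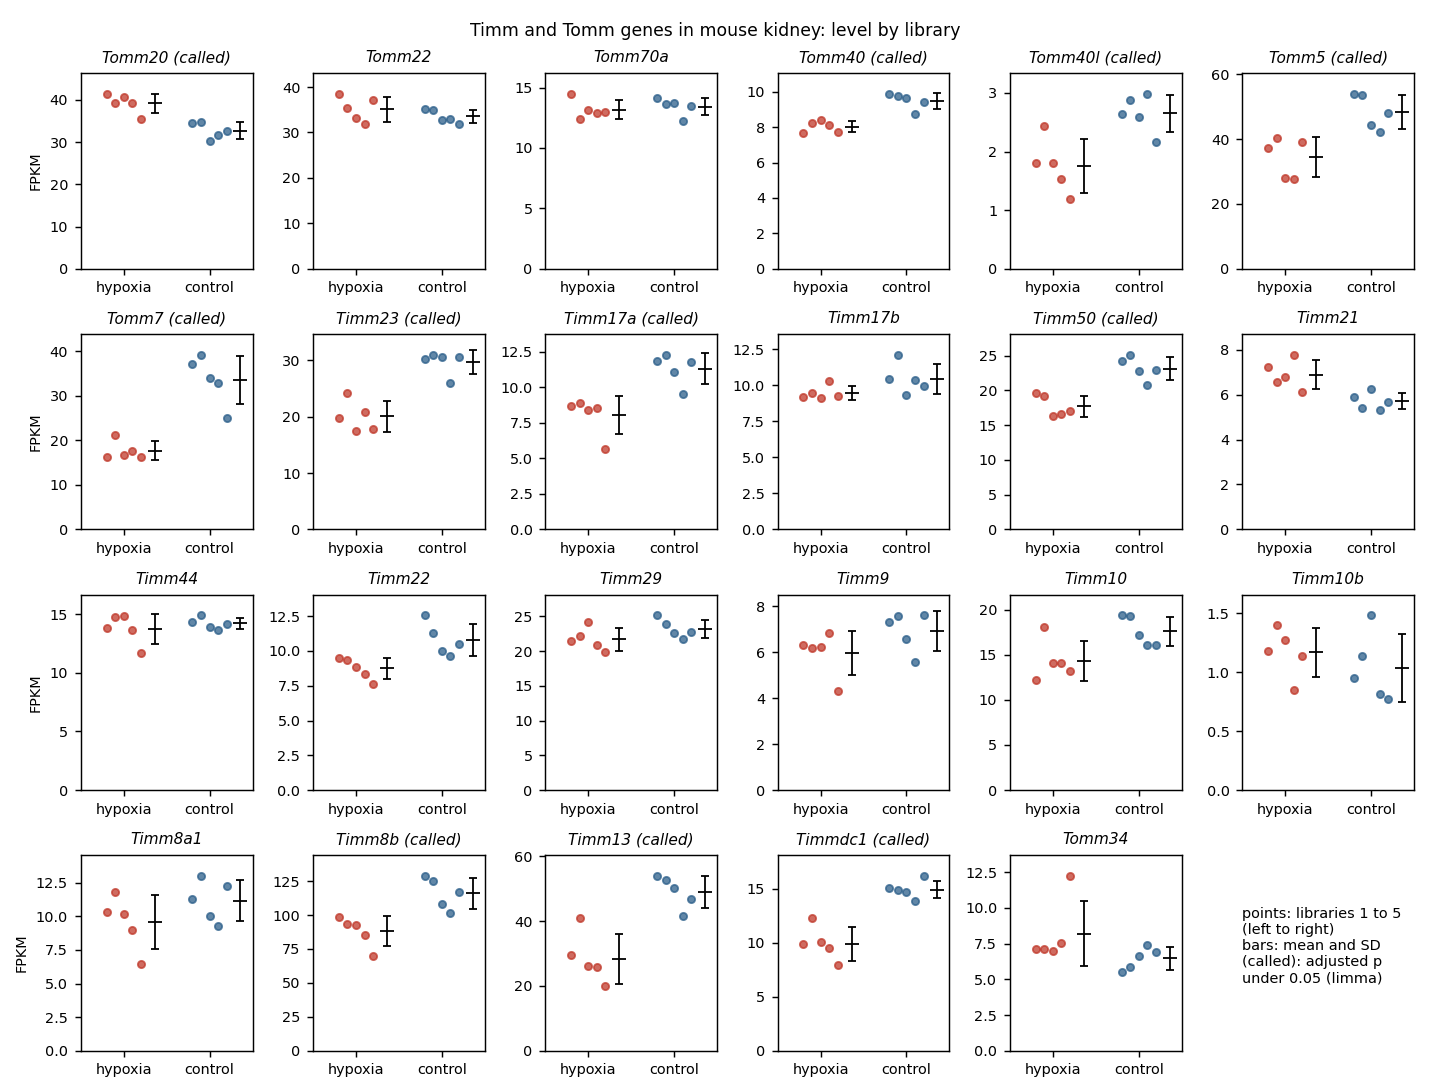
FPKM in every library (points, replicates 1 to 5 from left to right) with group mean and SD (bars, n = 5) for the 23 tested Timm and Tomm genes, on axes that start at 0, hypoxia (red) left of control (blue); genes past the limma test are marked as called. The hypoxia points of Tomm7 (16.3 to 21.3 FPKM) lie clear of its control points (25.1 to 39.1 FPKM), the groups overlap for Tomm40l, and for Tomm20 the hypoxia points lie above the control points.

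Of the 6 TIM23 complex genes, 3 were lower and 3 did not pass. Timm23, which shapes the inner membrane channel, had 19.7, 24.3, 17.5, 20.9 and 17.8 FPKM in hypoxia replicates 1 to 5, against 30.3, 31.0, 30.7, 26.1 and 30.6 FPKM in control replicates 1 to 5. Control replicate 4 was the low library of its group and still above all hypoxia libraries. The mean was 20.1 ± 2.73 FPKM in hypoxia kidneys and 29.7 ± 2.07 FPKM in control kidneys, 32.6% lower (log2 fold change −0.56, SE 0.0954, adjusted p = 0.00658), and the fold change was −0.54 without hypoxia replicates 4 and 5 (adjusted p = 0.0144). Timm50, the receptor that takes presequences over from the TOM complex, had 19.6, 19.1, 16.3, 16.6 and 17.1 FPKM in hypoxia replicates and 24.2, 25.1, 22.8, 20.7 and 22.9 FPKM in control replicates. Every hypoxia library lay below every control library (log2 fold change −0.37, SE 0.0764, adjusted p = 0.0136).

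Timm17a and Timm17b are alternative partners of Timm23, and cells use them in separate forms of the complex. Timm17a, whose protein is known to be removed under stress in mammalian cells, had 8.67, 8.91, 8.42, 8.52 and 5.70 FPKM in hypoxia replicates and 11.8, 12.3, 11.1, 9.53 and 11.8 FPKM in control replicates. Hypoxia replicate 5 stood below the other hypoxia libraries, and the groups did not overlap (log2 fold change −0.48, SE 0.121, adjusted p = 0.0311). The fold change was −0.36 without hypoxia replicates 4 and 5 (adjusted p = 0.0261), and the call held in 4 of the 10 fits that left out a library (up to 0.0802, without control replicate 2). Timm17b averaged 9.48 ± 0.472 FPKM in hypoxia kidneys and 10.4 ± 1.03 FPKM in control kidneys and did not pass (log2 fold change −0.13, adjusted p = 0.264).

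Timm44, which anchors the import motor to the channel, had 13.8, 14.7, 14.8, 13.6 and 11.6 FPKM in hypoxia replicates and 14.4, 14.9, 13.9, 13.7 and 14.2 FPKM in control replicates. Apart from the low hypoxia replicate 5 the groups overlapped closely (log2 fold change −0.05, adjusted p = 0.659, and 0.03 without hypoxia replicates 4 and 5). Timm21, which links the TIM23 complex to the TOM complex and to the respiratory chain, had 7.24, 6.57, 6.79, 7.77 and 6.10 FPKM in hypoxia replicates and 5.90, 5.42, 6.24, 5.32 and 5.68 FPKM in control replicates. Its log2 fold change was 0.25 (SE 0.0756, adjusted p = 0.0578), which passed with a correction for gene length (adjusted p = 0.0351) and on omitting hypoxia replicate 5 (adjusted p = 0.0181). It passed in 5 of the 24 alternatives. Among these, it passed in 1 of the 10 fits that left out a library (adjusted p up to 0.129, without control replicate 2).

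The TIM22 complex had no gene past the test. Timm22, its channel, averaged 8.74 ± 0.786 FPKM in hypoxia kidneys and 10.8 ± 1.17 FPKM in control kidneys (SD, n = 5 each). All hypoxia values (7.60 to 9.52 FPKM) lay below all control values (9.61 to 12.6 FPKM), but the log2 fold change of −0.29 did not pass the limma test (adjusted p = 0.0587). Timm29, a subunit of the complex known from human cells, had 21.5, 22.2, 24.2, 20.8 and 19.8 FPKM in hypoxia replicates and 25.1, 23.8, 22.6, 21.7 and 22.8 FPKM in control replicates, and the groups overlapped (log2 fold change −0.10, adjusted p = 0.376).

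Among the small TIM chaperones, 2 of the 6 tested genes were lower. Timm8b had the highest level of the 26 members, with 98.6, 93.3, 92.4, 85.4 and 70.0 FPKM in hypoxia replicates 1 to 5, against 129, 125, 108, 102 and 117 FPKM in control replicates 1 to 5. There was no overlap between the groups (log2 fold change −0.40, SE 0.111, adjusted p = 0.0411), and the call held in 4 of the 10 fits that left out a library (up to 0.108, without control replicate 1). Timm13, which forms a chaperone complex with Timm8a1, had 29.4, 40.9, 26.1, 25.7 and 20.0 FPKM in hypoxia replicates and 53.8, 52.6, 50.1, 41.5 and 46.7 FPKM in control replicates. Hypoxia replicate 2 came within 1 FPKM of control replicate 4, without overlap. The mean was 28.4 ± 7.73 FPKM in hypoxia kidneys and 49.0 ± 4.99 FPKM in control kidneys, 41.9% lower (log2 fold change −0.81, SE 0.162, adjusted p = 0.0129), and the fold change was −0.62 without hypoxia replicates 4 and 5 (adjusted p = 0.0256).

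Timm9 and Timm10, which together form the main carrier chaperone, did not pass. Timm10 had 12.2, 18.0, 14.1, 14.1 and 13.2 FPKM in hypoxia replicates and 19.3, 19.3, 17.2, 16.1 and 16.1 FPKM in control replicates, with hypoxia replicate 2 among the control values (log2 fold change −0.29, adjusted p = 0.0927, and 0.0198 on omitting that library). Timm10 passed in 1 of the 10 fits that left out a library (adjusted p up to 0.197, without control replicate 1). Timm9 ran from 4.30 to 6.82 FPKM in hypoxia libraries and from 5.58 to 7.59 FPKM in control libraries (log2 fold change −0.21, adjusted p = 0.288). Timm8a1, the mouse counterpart of the human gene mutated in a syndrome of deafness and dystonia, averaged 9.56 ± 1.99 FPKM in hypoxia kidneys and 11.2 ± 1.52 FPKM in control kidneys (log2 fold change −0.23, adjusted p = 0.323). Timm10b, which docks the chaperones on the TIM22 complex, ran from 0.849 to 1.40 FPKM in hypoxia libraries and from 0.773 to 1.48 FPKM in control libraries (log2 fold change 0.13, adjusted p = 0.582), and it shares 3086 bases on the same strand with Gm45799. Timm8a2 had at most 0.240 FPKM in hypoxia libraries and 0.121 FPKM in control libraries and was below the filter.

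Of the 3 genes named after the family whose proteins work outside the translocases, Timmdc1 was lower. It encodes an assembly factor of respiratory complex I and had 9.85, 12.3, 10.1, 9.48 and 7.90 FPKM in hypoxia replicates 1 to 5, against 15.1, 14.9, 14.6, 13.9 and 16.2 FPKM in control replicates 1 to 5. The groups did not overlap, and the mean was 33.5% lower in hypoxia kidneys (log2 fold change −0.58, SE 0.10, adjusted p = 0.00710). It was −0.46 without hypoxia replicates 4 and 5 (adjusted p = 0.0102). Tomm34, a cytosolic co-chaperone of precursor proteins, had 7.15, 7.15, 6.97, 7.53 and 12.2 FPKM in hypoxia replicates and 5.50, 5.87, 6.60, 7.42 and 6.93 FPKM in control replicates, so that its log2 fold change of 0.30 (adjusted p = 0.214) became 0.13 without hypoxia replicates 4 and 5. Tomm20l was at 0 in all hypoxia libraries and at 0 to 0.167 FPKM in control libraries, below the filter.

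Libraries differed in how far the members moved together. The median deviation of the 23 tested members from their control mean was −0.17, −0.13, −0.18, −0.29 and −0.40 on the log2 scale in hypoxia replicates 1 to 5, against 0.07, 0.11, −0.02, −0.12 and −0.01 in control replicates 1 to 5. Hypoxia replicate 5, the library with the immune and pancreatic markers, was the lowest hypoxia library for 12 of the 23 members, and hypoxia replicate 2 was the highest for 10. Control replicate 4, the lowest control library for 16 members, came close to hypoxia replicate 2 in this median. Proximal tubule markers summed to 2184 FPKM in hypoxia replicate 5 and 3599 FPKM in hypoxia replicate 4, against 3941 to 4240 FPKM in hypoxia replicates 1 to 3. Among control libraries, their sum was lowest in control replicate 4, at 3747 FPKM. The part of these differences in the member values was not tested.

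**Figure D3:**
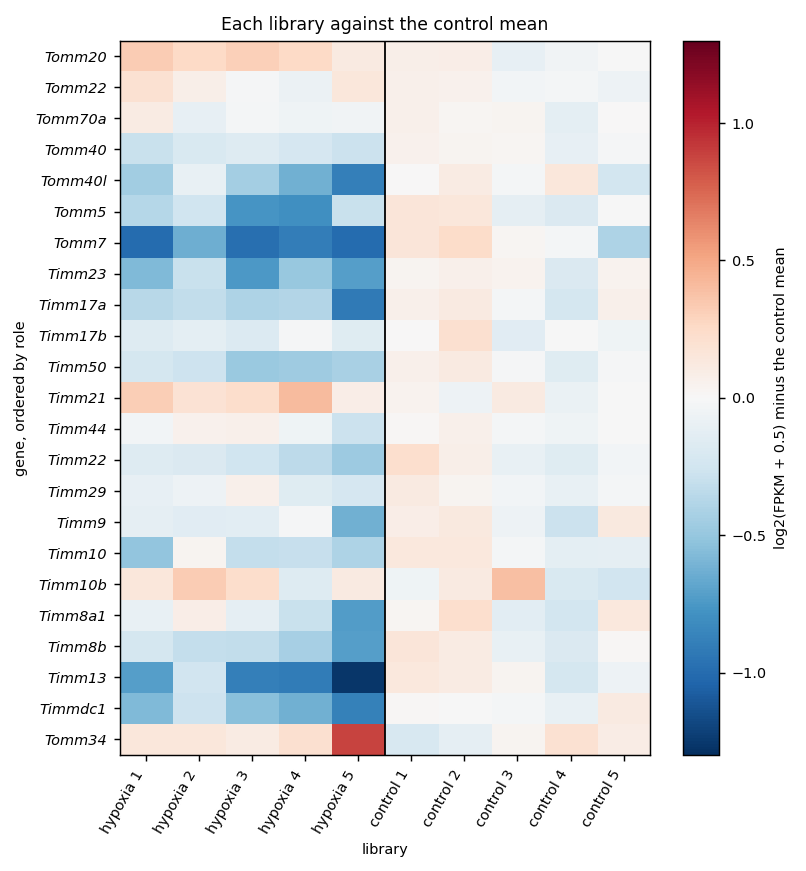
Deviation of each of the 23 tested Timm and Tomm genes from its control mean in every library, on log2(FPKM + 0.5), hypoxia replicates left of control replicates, with blue below the control mean and red above it. The columns of hypoxia replicates 4 and 5 have the lowest medians, −0.29 and −0.40, and Tomm34 stands out as high in hypoxia replicate 5.

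By gene length, of the 9 tested members shorter than 2000 bases, 6 were lower, and of the 14 longer ones, 4 were. Over all genes tested, 7.67% of the shorter and 7.83% of the longer passed as lower. With a correction for gene length within each library, 10 members were again lower and 2 were higher.

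Members were also set against each other within a library, which leaves out the scale of the library. For this, 10 ratios between related import genes were taken, as log2 of (FPKM + 0.5) of the first over that of the second. They were compared by an exact permutation test, two-sided, whose smallest possible p is 0.00794. These ratios too were chosen with earlier results of these data known, so their p-values do not rest on a blind choice. The ratio of Timm8a1 to its partner Timm13 was −1.47, −1.75, −1.32, −1.46 and −1.56 on the log2 scale in hypoxia replicates 1 to 5, against −2.21, −1.98, −2.26, −2.10 and −1.89 in control replicates 1 to 5. The groups did not overlap, and the difference of 0.58 had an exact p of 0.00794 and an adjusted p of 0.0397 over the 10 ratios. The ratio of the receptors Tomm20 and Tomm70a was 1.48, 1.62, 1.60, 1.57 and 1.42 in hypoxia replicates and 1.26, 1.32, 1.11, 1.34 and 1.25 in control replicates, without overlap (difference 0.28, exact p = 0.00794, adjusted p = 0.0397). Without hypoxia replicates 4 and 5 both adjusted exact p-values were 0.0893, in a design that allows no p below 0.0179. Both calls were also lost without control replicate 3, where 0 of the 10 ratios passed. Both ratios set a gene past the limma test (Timm13 or Tomm20) against a gene that did not pass, so they partly repeat those calls.

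The other 8 ratios did not pass. The log2 ratio of Timm17a to Timm17b was −0.66 to −0.08 in hypoxia libraries and −0.12 to 0.24 in control libraries, a difference of −0.35 (exact permutation p = 0.0317, adjusted p = 0.0635). The ratio of Timm10 to Timm10b differed by −0.43 (exact permutation p = 0.0238, adjusted p = 0.0635). The ratio of the subunits Timm9 and Timm10 differed by 0.09 (adjusted exact p = 0.540), and that of Timm8a1 to Timm8b by 0.17 (adjusted exact p = 0.0794).

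A further 10 ratios, of the subunits of a complex to its channel, were chosen after the values were seen and are given as a description, with no test. The channel genes used, Tomm40 and Timm23, both passed the limma test as lower. A subunit that did not move therefore also differs from its channel gene, and these ratios partly repeat those calls. Relative to Tomm40, Tomm20 was 2.36, 2.19, 2.22, 2.21 and 2.13 on the log2 scale in hypoxia replicates 1 to 5 and 1.76, 1.78, 1.60, 1.79 and 1.74 in control replicates 1 to 5. This was a difference of 0.49 without overlap of the groups. Tomm22 and Tomm70a differed from Tomm40 by 0.29 and 0.20 in the same direction, and Tomm7 by −0.67 in the opposite one, each without overlap of the groups. Tomm5 differed from Tomm40 by −0.27, with overlapping groups. Without hypoxia replicates 4 and 5 the differences were 0.52 for Tomm20, 0.30 for Tomm22, 0.21 for Tomm70a, −0.65 for Tomm7 and −0.25 for Tomm5.

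In the TIM23 complex, the log2 ratio of Timm21 to Timm23 was −1.39, −1.81, −1.31, −1.37 and −1.47 in hypoxia replicates 1 to 5, against −2.27, −2.41, −2.21, −2.19 and −2.33 in control replicates 1 to 5. The difference was 0.81 and that of Timm44 to Timm23 was 0.51, both without overlap of the groups. Timm17b differed from Timm23 by 0.43, Timm50 by 0.19 and Timm17a by 0.09, and in these 3 ratios the groups overlapped.

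**Figure D4:**
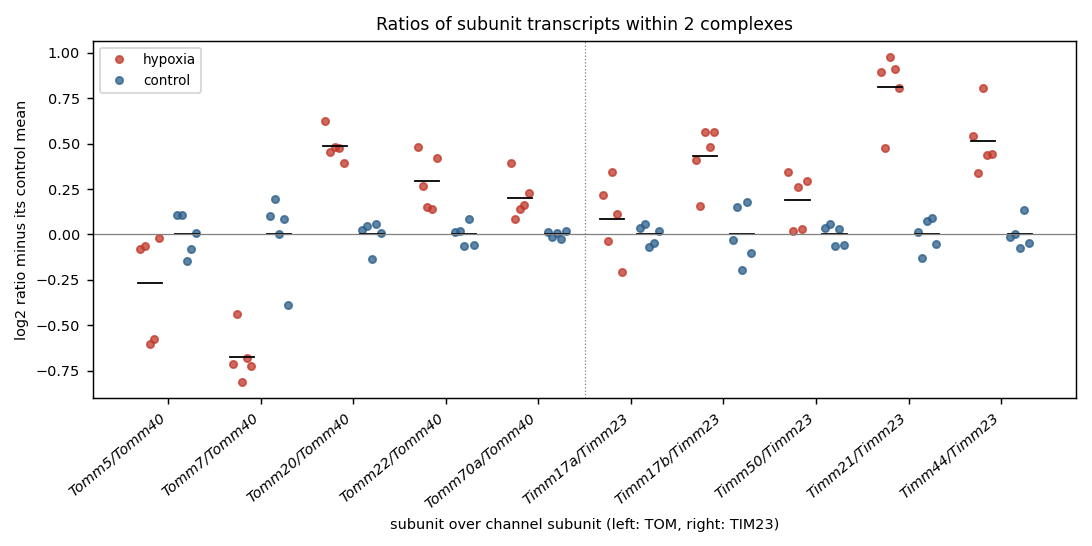
Log2 ratios of each subunit to the channel gene of its complex (Tomm40 on the left, Timm23 on the right) in every library, on FPKM + 0.5 and drawn as the difference from the control mean, hypoxia (red) left of control (blue), with lines at group means. The hypoxia mean of Timm21 over Timm23 lies 0.81 above the control mean and that of Tomm7 over Tomm40 lies at −0.67.

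Several members start back to back with another gene, and these neighbours were chosen after the values were seen and are described without a test of the ratio. Timm23 and Parg, which encodes an enzyme that removes ADP-ribose chains, start 51 bases apart on opposite strands. Parg averaged 6.81 ± 0.508 FPKM in hypoxia kidneys and 6.48 ± 0.358 FPKM in control kidneys (log2 fold change 0.07, adjusted p = 0.541). The ratio of Timm23 to Parg differed by −0.63, without overlap of the groups, which partly repeats the limma call of Timm23. Timm8b starts 98 bases from Sdhd, a subunit of respiratory complex II, which averaged 181.4 ± 35.2 FPKM in hypoxia kidneys and 223.0 ± 22.3 FPKM in control kidneys (log2 fold change −0.31, adjusted p = 0.180). Their ratio differed by −0.09, and the groups overlapped.

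Of 29 genes that work with the translocases, 8 were lower and 0 were higher in the limma test, with a median log2 fold change of −0.18, against 7.79% lower, 3.66% higher and a median of 0.012 over all genes tested. Without hypoxia replicates 4 and 5, 7 were lower and 0 higher, with a median of −0.12, against 7.75% and 4.53% of all genes. The count also depended on single libraries, being 4 on omitting control replicate 1, 2, 3 or 5 or hypoxia replicate 4, and 12 on omitting hypoxia replicate 5.

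Of the 8 motor and TIM23 partner genes, 3 were lower. Grpel1, the nucleotide exchange factor of the motor, averaged 19.9 ± 1.85 FPKM in hypoxia kidneys and 28.0 ± 2.61 FPKM in control kidneys (log2 fold change −0.48, adjusted p = 0.00803). Romo1, a small protein of the TIM23 complex that is also tied to reactive oxygen species, averaged 36.9 ± 7.87 FPKM in hypoxia kidneys and 59.6 ± 6.74 FPKM in control kidneys (log2 fold change −0.70, adjusted p = 0.0138). Dnlz, which keeps the motor chaperone soluble, was lower by a log2 fold change of −0.43 (adjusted p = 0.0459, and 0.0621 without hypoxia replicates 4 and 5). The Dnlz call was lost on omitting any library but hypoxia replicate 2 or 5 (adjusted p up to 0.112). Hspa9, the motor's Hsp70 itself, averaged 178.5 ± 35.6 FPKM in hypoxia kidneys and 191.2 ± 14.2 FPKM in control kidneys and did not pass (log2 fold change −0.12, adjusted p = 0.604, and 0.03 without hypoxia replicates 4 and 5).

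Past the channel, presequences are removed by proteases. Of 6 such genes, Mipep, an intermediate peptidase, was lower (log2 fold change −0.32, adjusted p = 0.0327), though not on omitting control replicate 1, 2, 3 or 5 or hypoxia replicate 4 (adjusted p up to 0.0838). The subunits Pmpca and Pmpcb of the main processing protease had log2 fold changes of −0.23 (adjusted p = 0.105) and −0.44 (adjusted p = 0.0812, and 0.0251 on omitting hypoxia replicate 5) and did not pass. Pmpcb passed in 1 of the 10 fits that left out a library (adjusted p up to 0.170, without control replicate 2). In the relay that oxidises cysteines in the intermembrane space, 2 of 3 genes were lower. Gfer, its sulfhydryl oxidase, averaged 8.53 ± 0.584 FPKM in hypoxia kidneys and 13.7 ± 0.421 FPKM in control kidneys (log2 fold change −0.66, adjusted p = 0.000312). Chchd4, the receptor that Gfer keeps oxidised and on which the small TIMs depend, had a log2 fold change of −0.40 (adjusted p = 0.0480), a call lost on omitting any library but hypoxia replicate 2 or 5 (adjusted p up to 0.120).

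Of the outer membrane sorting genes, 0 of 7 passed in limma, among them Samm50, which folds barrel proteins such as Tomm40 into the membrane (log2 fold change −0.36, adjusted p = 0.0670, and 0.0324 on omitting hypoxia replicate 5), and Mtch1, an insertase (−0.22, adjusted p = 0.141). Samm50 passed in 2 of the 10 fits that left out a library (adjusted p up to 0.139, without control replicate 1). Neither inner membrane insertase gene passed. Oxa1l had a log2 fold change of 0.14 (adjusted p = 0.330) and Cox18 of −0.20 (adjusted p = 0.0517, and 0.0397 on omitting hypoxia replicate 5). Cox18 passed in 1 of the 10 fits that left out a library (adjusted p up to 0.130, without control replicate 1). Of 3 matrix folding genes, 2 were lower, a chaperone and its co-chaperone. Hspd1 averaged 186.4 ± 32.7 FPKM in hypoxia kidneys and 278.7 ± 31.5 FPKM in control kidneys (log2 fold change −0.59, adjusted p = 0.0284, and up to 0.0741 on omitting control replicate 1, 2, 3 or 5 or hypoxia replicate 4), and its partner Hspe1 averaged 74.9 ± 2.11 FPKM in hypoxia kidneys and 108.1 ± 12.6 FPKM in control kidneys (log2 fold change −0.52, adjusted p = 0.00740). Trap1, an Hsp90 of mitochondria, averaged 97.5 ± 17.4 FPKM in hypoxia kidneys and 106.7 ± 8.33 FPKM in control kidneys and did not pass (log2 fold change −0.15, adjusted p = 0.474).

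**Figure D5:**
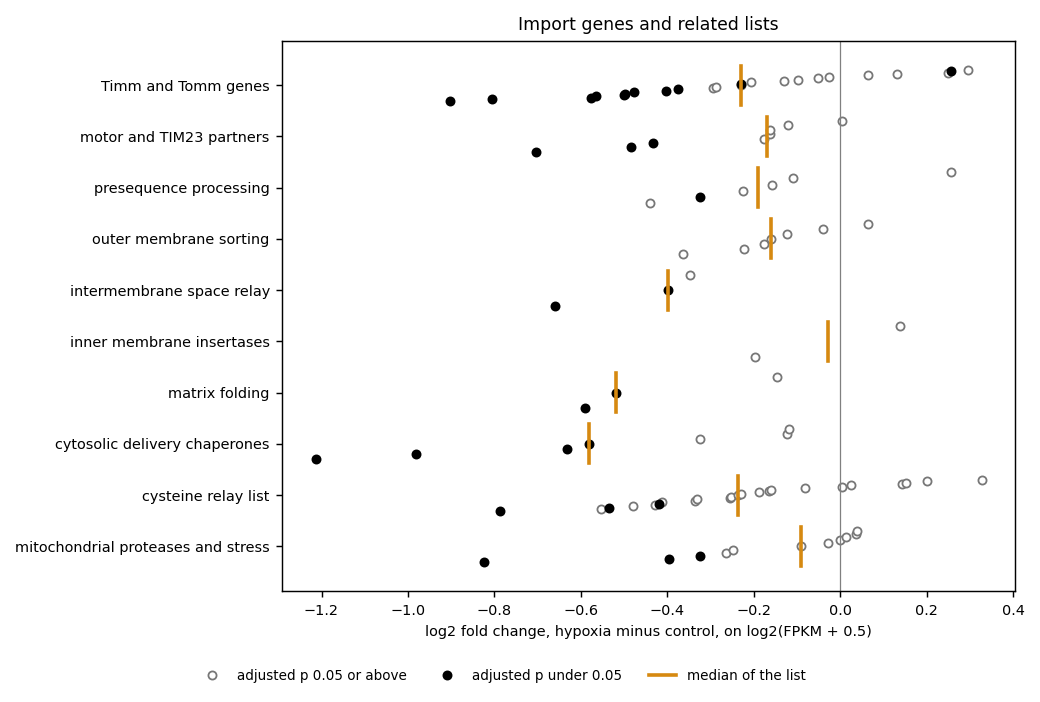
Log2 fold change (hypoxia minus control, on log2(FPKM + 0.5)) of the Timm and Tomm genes and of the related lists, with filled points for genes past an adjusted p of 0.05 and a bar for the median of each list. The median of the members is −0.23, and Gfer at −0.66 and Romo1 at −0.70 are among the lowest points of the import lists.

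The last 3 lists cover steps before and after import, and their counts stand beside 7.79% lower and 3.66% higher over all genes tested. Of 7 tested cytosolic chaperones that deliver precursors, 4 were lower and 0 higher, with a median log2 fold change of −0.58. They were Hsp90aa1, Hsp90ab1, Dnaja1 and Stip1, the last of which joins Hsp70 to Hsp90 and averaged 32.9 ± 4.52 FPKM in hypoxia kidneys and 51.0 ± 0.705 FPKM in control kidneys (adjusted p = 0.00324). Of 23 genes listed for the cysteine relay, 3 were lower and 0 higher (median −0.24). The list includes Cox11, a membrane-anchored protein that has no twin-cysteine motif, and without it 2 of 22 were lower. Cox11, which delivers copper to cytochrome oxidase, averaged 2.78 ± 0.378 FPKM in hypoxia kidneys and 5.18 ± 0.818 FPKM in control kidneys (log2 fold change −0.79, adjusted p = 0.00341). Cox19, another assembly factor of that enzyme, had −0.42 (adjusted p = 0.0131) and Ndufa8, a subunit of complex I, had −0.54 (adjusted p = 0.0274), a call lost on omitting control replicate 1, 2, 3 or 5 or hypoxia replicate 3 or 4 (adjusted p up to 0.0739). Of 11 mitochondrial protease and stress genes, 3 were lower and 0 higher (median −0.09). Clpx, the unfolding subunit of the matrix ClpXP protease, averaged 34.7 ± 4.60 FPKM in hypoxia kidneys and 61.5 ± 6.42 FPKM in control kidneys (log2 fold change −0.82, adjusted p = 0.00226). Afg3l2 (−0.32, adjusted p = 0.0226) and Spg7 (−0.40, adjusted p = 0.0472, and 0.0643 without hypoxia replicates 4 and 5) form the inner membrane protease that faces the matrix. Both calls were lost on omitting control replicate 1, 2 or 3 (adjusted p up to 0.0664 for Afg3l2 and 0.111 for Spg7), and that of Spg7 also on omitting control replicate 5 or hypoxia replicate 1, 3 or 4.

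Overlapping genes limit some of these values, since the treatment of strand in the counting is not given in the sources used here. Of the 26 members, 17 overlap another gene, and 8 overlap a gene with a mean of at least 0.5 FPKM. Among the 11 members past the test, those that overlap such a gene are Timm8b, which shares 81 bases with Nkapd1 (3.77 FPKM), and Tomm20, which holds a snoRNA gene (1.82 FPKM). The longest overlaps of the 11 are with genes of lower level on the opposite strand. Tomm40l shares 4691 bases with Nr1i3 (0.0358 FPKM) and Timmdc1 shares 1732 bases with Gm15953 (0.0755 FPKM). Timm21, which did not pass, shares 5334 bases with Fbxo15 (0.0086 FPKM) in the same way. What these overlaps did to the values was not tested.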

How the data were processed

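RNA sequencing values of 10 mouse kidney samples were analysed, 5 per group by the treatment label. The authors deposited 1 table of FPKM values with gene lengths (an other unit, in bases), as the file headers name them. The submitters' processing notes list HISAT2 2.0.5 as aligner and the human build hg38. Gene identifiers and coordinates are those of mouse GRCm38. The tool for counting and its use of strand are not stated there. FPKM times length gave whole reads in 100% of values (tolerance 0.05). The scale of the libraries did not follow these read totals. A read on a gene of a kilobase was 0.0549 FPKM in hypoxia replicate 5 (16561672 reads). It was 0.0609 FPKM in control replicate 2 (17308339 reads). The part of this scale in the fold changes was not tested.

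The test was that of limma 3.58.1 (R 4.3.3), with lmFit and a trended, robust eBayes step and no covariate, run on log2(FPKM + 0.5) for genes averaging at least 0.5 FPKM, without further scaling, two-sided, with Benjamini-Hochberg adjustment at 0.05. Fold changes on this scale understate those of low genes. The script was tested on simulated data. The 10 ratios between related genes were compared by exact permutation. Python 3.11.15 with matplotlib 3.10.9 made the figures.

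The members, lists and ratios were chosen with earlier results of these data known. All members are named, with values per library for those past the threshold and for the 4 most abundant others. Of the other lists, up to 5 genes with the smallest p past the threshold (or the 2 most abundant) and Hspa9, Chchd4, Samm50, Pmpca, Pmpcb, Hspd1 and Hspe1 are named. Timm21, Tomm34, Trap1, Pvalb, Slc5a2, Aqp1 and the neighbouring genes, given beyond this rule, were chosen after their values were seen. Alternatives covered scaling, filters, pseudocounts, gene length, a test on recovered reads, sample weights, a replicate block and left-out libraries. Median of ratios scaling hardly altered the deposited values and again gave 1748 genes past the threshold, so it is no separate check. No alternative scaled by read totals alone. The labels do not say that samples of a group came from separate animals, so the p-values reflect the spread among these samples, which may be technical.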

Additional observations from a re-analysis of the deposited data

Results flagged for a closer look

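A gap test for a library far from the others of its group (Dixon's test at 95%, critical value 0.71 for 5 libraries) was passed in 13 of 76 groups of values. Chance alone passes about 1 in 20. Of the 46 groups of values of Timm and Tomm genes, 5 passed. Tomm7 was high in hypoxia replicate 2 (21.3 FPKM), the library in which 10 members had their highest hypoxia value. Timm17a (5.70 FPKM) and Timm9 (4.30 FPKM) were low and Tomm34 (12.2 FPKM) was high in hypoxia replicate 5. Timm23 was low in control replicate 4 (26.1 FPKM).

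The other flags concern marker sums. In hypoxia replicate 5, the sums were 360.0 FPKM for B cells, 37.3 FPKM for T cells, 151.9 FPKM for macrophages and 32.8 FPKM for pancreatic acini. In hypoxia replicate 4, they were 688.1 FPKM for adrenal cortex, 655.3 FPKM for fat and 6.06 FPKM for brown fat. Proximal tubule markers were low in control replicate 4 (3747 FPKM). Their sum was lower still in hypoxia replicate 5 (2184 FPKM), which the gap test did not flag. The part of these tissues in the member values was not tested, beyond the results given without hypoxia replicates 4 and 5.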

How the results depend on the processing

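Of 24 alternatives, none turned the sign of a member past the threshold, and the median of the members stayed between −0.31 and −0.22 when single libraries were left out. Counts moved more. Leaving out single libraries gave 824 to 2724 genes past the threshold (1748 with all libraries), 5 to 11 lower members (10), 0 to 2 higher members (1), 4 to 12 lower genes among the other import genes (8) and 0 to 3 ratios past the test (2). Without a filter on low values, which raises the number of genes adjusted over, 966 genes passed, with 5 lower members, 0 higher members and 4 lower import genes. With sample weights 3253 genes passed, with 2 higher members and 13 lower import genes. Higher members numbered 0 with TMM scaling and with voom on recovered reads, and 2 with a filter at 2 FPKM and with the gene length correction, with or without hypoxia replicates 4 and 5. Without hypoxia replicates 4 and 5, 0 ratios passed. The causes were not tested.

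Values that turned sign were near 0 and past no threshold. The Timm44 log2 fold change (−0.05) became 0.026 without hypoxia replicates 4 and 5, 0.021 with TMM and 0.043 with the length correction on those libraries, and 3.6e-05 with sample weights, and ran from −0.079 to 0.0052 (without hypoxia replicate 5) when single libraries were left out. The Hspa9 log2 fold change (−0.12) became 0.028, 0.023 and 0.038 under the first 3 of these and ran from −0.20 to 0.017 (without hypoxia replicate 5). The Tomm34/Stk4 log2 ratio (−0.05) became 0.13 without hypoxia replicates 4 and 5 and ran from −0.14 to 0.13 when single libraries were left out, with 0.13 without hypoxia replicate 5 and 0.0085 without control replicate 5.

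Whether replicate numbers pair the samples was looked at only by correlation, which cannot settle it. Deviations of same-numbered libraries correlated at 0.024, 0.086, 0.075, −0.077 and −0.024, and 2 of 5 correlated best with their own number. With a replicate block, 999 genes passed, with 6 lower members, 0 higher members, 5 lower import genes and 0 ratios, for which 5 pairs allow no exact p below 0.0625.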

Other observations

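A Timm or Tomm row that is not protein-coding, the antisense gene Tomm6os, ran from 0 to 0.159 FPKM in hypoxia libraries and from 0.0561 to 0.166 FPKM in control libraries. Over the members, 14 of 23 had an unadjusted limma p under 0.05, against 29.2% of all genes tested.

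Without hypoxia replicates 4 and 5, 4 of the 23 genes listed for the cysteine relay were lower, of which 1 was Cox11, and 1, Chchd5, was higher. Of the 11 mitochondrial protease and stress genes 2 were lower and 0 higher. Over all genes tested without these libraries, 7.75% were lower and 4.53% higher. Chchd5 was chosen after its value was seen.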
